A study of Mus musculus with 6 samples.

Results

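The genes described here are the WNT ligands, their Frizzled receptors and a set of regulators of the same pathway, measured in bEnd.3 cells with and without mitochondria from astrocytes. Members were protein-coding genes of the GRCm38 annotation with a Wnt, Fzd, Sfrp or Dkk symbol, together with 13 named genes: Lrp5, Lrp6, Axin1, Axin2, Lef1, Tcf7, Tcf7l1, Tcf7l2, Rnf43, Znrf3, Nkd1, Nkd2 and Apcdd1. The rule used no measured value, but the set was chosen with earlier results of these data known. It gave 50 of the 55335 identifiers in the table: 19 ligands, 10 Frizzled receptors, 8 secreted antagonists of the Sfrp and Dkk families, and the 13 named genes.

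WNT proteins are lipid-modified secreted signals. In the canonical branch a WNT binds a Frizzled receptor and the co-receptor LRP5 or LRP6, the AXIN complex stops marking beta-catenin for breakdown, and beta-catenin joins TCF/LEF factors on target genes. In other branches Frizzled receptors act on cell polarity and calcium without beta-catenin. In the developing and adult brain, Wnt7a and Wnt7b from neural cells, or norrin, act on endothelial Fzd4 to induce and keep the blood-brain barrier.

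The series compares 3 control libraries with 3 mitochondria libraries. All were labelled bEnd.3, an immortalised mouse brain endothelial line, and wild type. The mitochondria group received mitochondria isolated from primary mouse astrocytes in 100 µl of medium and the control group the same volume of medium alone, and RNA was taken after 24 h for stranded mRNA sequencing. Nothing in the labels states that libraries of 1 group were grown apart, and the p-values therefore rest on a spread that may be technical. The values were read as FPKM, fragments scaled to transcript length and library size, so levels of different genes are compared per length.

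Depth roughly estimated from the FPKM was 17000000 to 21100000 fragments in the controls and 21800000 to 27200000 with mitochondria. These estimates did not overlap between the groups. Among 15 endothelial markers, 8 were under 1 FPKM in every library, including the defining genes Cdh5 (at most 0.0685 FPKM), Pecam1 (at most 0.268) and Cldn5 (at most 0.129). Their summed level was 140.5 to 147.9 FPKM in controls and 162.4 to 174.9 with mitochondria, most of it Cd34, which rose (limma adjusted p = 0.0265), and Eng. Flt1 (7.43 to 11.1 FPKM over the 6 libraries), Tie1 (4.94 to 6.16), Egfl7 (3.33 to 4.45) and Kdr (2.699 to 4.09) were also expressed, and Flt1 and Kdr were lower with mitochondria without overlap (limma adjusted p-values 0.114 and 0.143). The near absence of Cdh5, Pecam1 and Cldn5 goes against the endothelial label, while these other markers were present. The 14 fibroblast and mural markers summed to 427 to 462 FPKM in controls and 376 to 416 with mitochondria, led by Col3a1 and by Col1a1, which fell (limma adjusted p = 0.00547), with 9 of the 14 under 1 FPKM everywhere. Others of the 14 went the other way: Pdgfra averaged 18.4 ± 0.756 and 22.6 ± 0.586 FPKM and Acta2 1.64 ± 0.107 and 2.18 ± 0.215 FPKM, both without overlap (SD, n = 3, limma adjusted p-values 0.0702 and 0.204). The 6 microglial markers summed to 224 to 272 and 182 to 208 FPKM, nearly all of it Tmem119, with Ptprc and P2ry12 at 0. The 9 astrocyte markers summed to 13.5 to 48.3 and 26.3 to 28.1 FPKM, nearly all of it Gja1, with Aqp4 and Sox9 at 0 in every library. Aldh1l1 was higher with mitochondria without overlap, at 0.302 to 0.455 FPKM in controls and 0.972 to 1.15 with mitochondria. Slc1a2, at most 0.169 FPKM, was higher without overlap too, and neither was tested. The groups of Gja1, S100b, Fgfr3, Gfap and Slc1a3 overlapped. The estimated depth and the endothelial, fibroblast and microglial sums thus separated the groups, as the results below do. Their part in those results was not tested. In bulk RNA, fewer cells of a type and less RNA per cell cannot be told apart.

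The libraries held a restricted part of the family. Of the 50 members, 25 stayed under 1 FPKM throughout, 6 of them at 0 in all libraries (Wnt3a, Wnt8a, Wnt9b, Fzd10, Dkk4 and Nkd1). Tests were run on the 24 that reached 1 FPKM in 3 or more of the 6 libraries. The most abundant were Sfrp2, Lrp6, Fzd1, Axin1 and Dkk2. With mitochondria 1 member passed at a limma adjusted p under 0.05, the transcription factor gene Tcf7l1, which fell. Of all genes tested 1.12% passed. The Tcf7l1 result was lost whichever library was left out. Among the tested members, Wnt5b, Fzd3, Fzd4, Fzd5, Fzd6, Tcf7l2 and Lef1 had lower values without overlap but did not pass the test. Of all genes tested, 21.0% had no overlap between the groups, 11.4% of them all being lower.

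**Figure D1:**
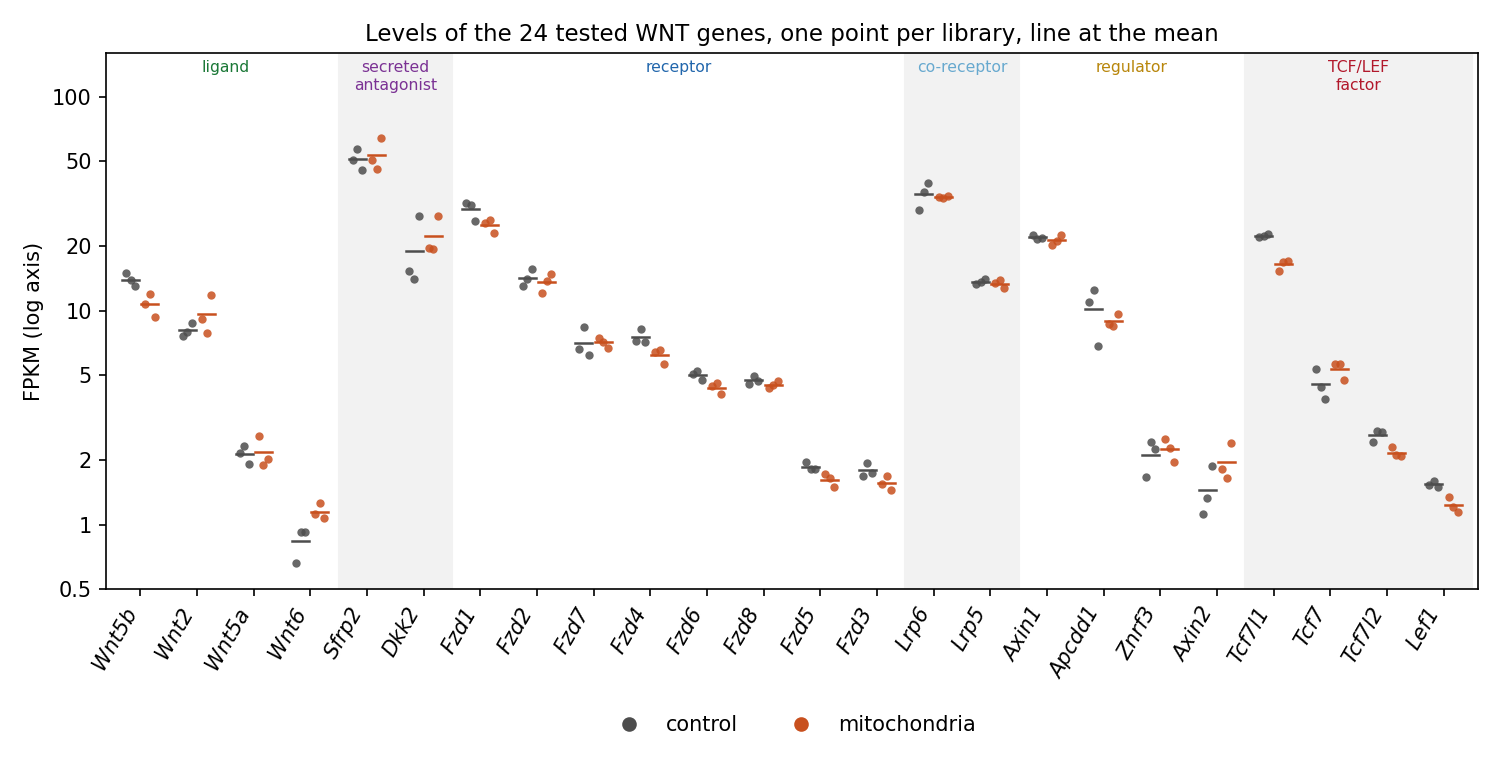
Levels of the 24 tested members in FPKM on a log axis, grouped by role, with 1 point per library (grey for control, orange for mitochondria) and a line at the mean of 3. Tcf7l1 lies between 22.2 and 22.7 FPKM in the controls and between 15.3 and 17.1 FPKM with mitochondria.

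In limma over 12639 genes, with Benjamini-Hochberg adjustment over all of them, 0 of the 24 tested members were higher and 1 was lower at an adjusted p under 0.05. Of all genes tested 1.12% were called, 0.649% lower and 0.467% higher. At an unadjusted p under 0.05 there were 8 members (33.3%), 7 lower and 1 higher, where 13.9% of all genes tested met that mark, 7.32% lower and 6.58% higher. The groups did not overlap in 9 members (37.5%), 8 lower and 1 higher, against 21.0% of all genes tested, 11.4% lower and 9.62% higher. The 1 higher member in both counts was Wnt6. It passed the filter only through the mitochondria libraries, where it was higher, so it adds no support to either count. The median log2 change of the 24 members was −0.05, and that of all genes tested was −0.01. The set was chosen with earlier results of these data known, so these are not blind comparisons. The members are not independent of one another, and with 1 library left out the count at an unadjusted p under 0.05 ran from 2, without mitochondria replicate 3, to 9, without control replicate 3. It was 3 without control replicate 2, and 5 without mitochondria replicate 1 or 2.

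Promoters of WNT pathway genes are often searched for TCF/LEF motifs, so the RefSeq sequence upstream of 4 members with lower values is shown, for the called gene Tcf7l1, the leading ligand Wnt5b, the low ligand Wnt11 and the leading receptor Fzd1. All are 5′ to 3′ on the gene's strand, on GRCm38.p6, and end upstream of the gene's first base in GENCODE M21. Capitals mark CTTTGA or its reverse complement TCAAAG, a core of the TCF/LEF motif, searched on both strands.
Tcf7l1: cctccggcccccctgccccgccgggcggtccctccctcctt
Wnt5b: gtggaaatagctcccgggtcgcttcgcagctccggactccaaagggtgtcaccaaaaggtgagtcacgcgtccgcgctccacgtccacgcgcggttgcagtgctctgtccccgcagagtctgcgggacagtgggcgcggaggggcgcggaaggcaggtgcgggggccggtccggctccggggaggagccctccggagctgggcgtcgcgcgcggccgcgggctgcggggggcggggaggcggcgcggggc
Wnt11: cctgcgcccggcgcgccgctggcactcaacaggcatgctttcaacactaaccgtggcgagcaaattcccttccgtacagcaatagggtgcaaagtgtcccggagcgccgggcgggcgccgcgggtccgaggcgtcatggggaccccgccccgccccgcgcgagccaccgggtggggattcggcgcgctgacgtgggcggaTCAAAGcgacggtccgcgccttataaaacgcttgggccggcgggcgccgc
Fzd1: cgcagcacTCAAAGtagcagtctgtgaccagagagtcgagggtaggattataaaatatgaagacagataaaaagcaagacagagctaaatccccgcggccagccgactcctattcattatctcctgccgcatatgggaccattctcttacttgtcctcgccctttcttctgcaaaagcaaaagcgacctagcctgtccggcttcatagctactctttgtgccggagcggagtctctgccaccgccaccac
They lie at chr6:72789255-72789295 (minus strand), chr6:119544348-119544597 (minus strand), chr7:98834862-98835111 (plus strand) and chr5:4758217-4758466 (minus strand). For Tcf7l1 only 41 bases are given, since the other 209 of the RefSeq window fall inside a GENCODE transcript. The Wnt11 and Fzd1 windows held 1 match each, and those printed for Tcf7l1 and Wnt5b held 0. Each is the window farthest upstream: Wnt5b has 2 more, at other starts, of which 1 held a match, and Wnt11 has 1 more, which held 0. Windows were found for 33 of the 50 members. Of their 42 windows of 250 bases, 5 held a match (11.9%), while 13.8% of all 32851 windows did. A match is only a run of letters.

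The TCF/LEF factors bind DNA at WNT target genes. All 4 were expressed. Tcf7l1, also called Tcf3, acts mainly as a repressor until beta-catenin is present. It stood at 22.2, 22.3 and 22.7 FPKM in control replicates 1 to 3 and at 15.3, 16.9 and 17.1 FPKM in mitochondria replicates 1 to 3. Every mitochondria library lay below every control, and the controls lay close together. The mean fell from 22.4 ± 0.284 to 16.5 ± 0.984 FPKM (SD, n = 3 each), a log2 change of −0.42 on the log2(FPKM + 1) scale (SE 0.06, 95% interval −0.56 to −0.29, limma adjusted p = 0.0302). The gene (ENSMUSG00000055799) spans chr6:72626378-72789254 on the minus strand.

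The direction of Tcf7l1 held in all 16 other fits, with log2 changes of −0.45 to −0.38. Its call was lost whichever library was left out, with limma adjusted p-values of 0.064 to 0.135 in those 6 fits, and with no filter on low values (limma adjusted p = 0.105). In exons, 179 of its 3924 bases overlap the antisense gene Gm15401, which was at 0.0448 to 0.339 FPKM in these libraries.

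Tcf7l2, also called Tcf4, is the main partner of beta-catenin in many epithelia. It was at 2.44, 2.74 and 2.72 FPKM in controls and 2.31, 2.11 and 2.10 FPKM with mitochondria (log2 change −0.19, SE 0.07, limma adjusted p = 0.297). Lef1, an activator and itself a target of the pathway in brain endothelium, was at 1.54, 1.61 and 1.501 FPKM in controls and 1.35, 1.21 and 1.15 FPKM with mitochondria (log2 change −0.19, limma adjusted p = 0.317). In both genes the groups did not overlap. Of the 8788 exonic bases of Lef1, 1208 overlap the antisense gene Gm43352, which was at 0.215 to 0.966 FPKM. How far its reads enter the Lef1 values is not known, since the use of strand is not given. Tcf7, which encodes TCF1, was at 5.35, 4.39 and 3.89 FPKM in controls and 5.66, 5.65 and 4.76 FPKM with mitochondria, and its groups overlapped (log2 change 0.20, 95% interval −0.07 to 0.47, limma adjusted p = 0.488).

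The summed level of the 4 factors was 30.8 to 31.5 FPKM in controls and 24.6 to 25.9 FPKM with mitochondria. Tcf7l1 made up 70.4% to 73.7% of that sum in controls and 62.2% to 68.2% with mitochondria, and Tcf7 made up 12.6% to 17.0% and 18.9% to 23.0%. The shares of Tcf7l2 and Lef1 overlapped, as did the levels of Tcf7 itself, whose share also moves with the size of the sum. No test was made of a sum or share over members.

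**Figure D2:**
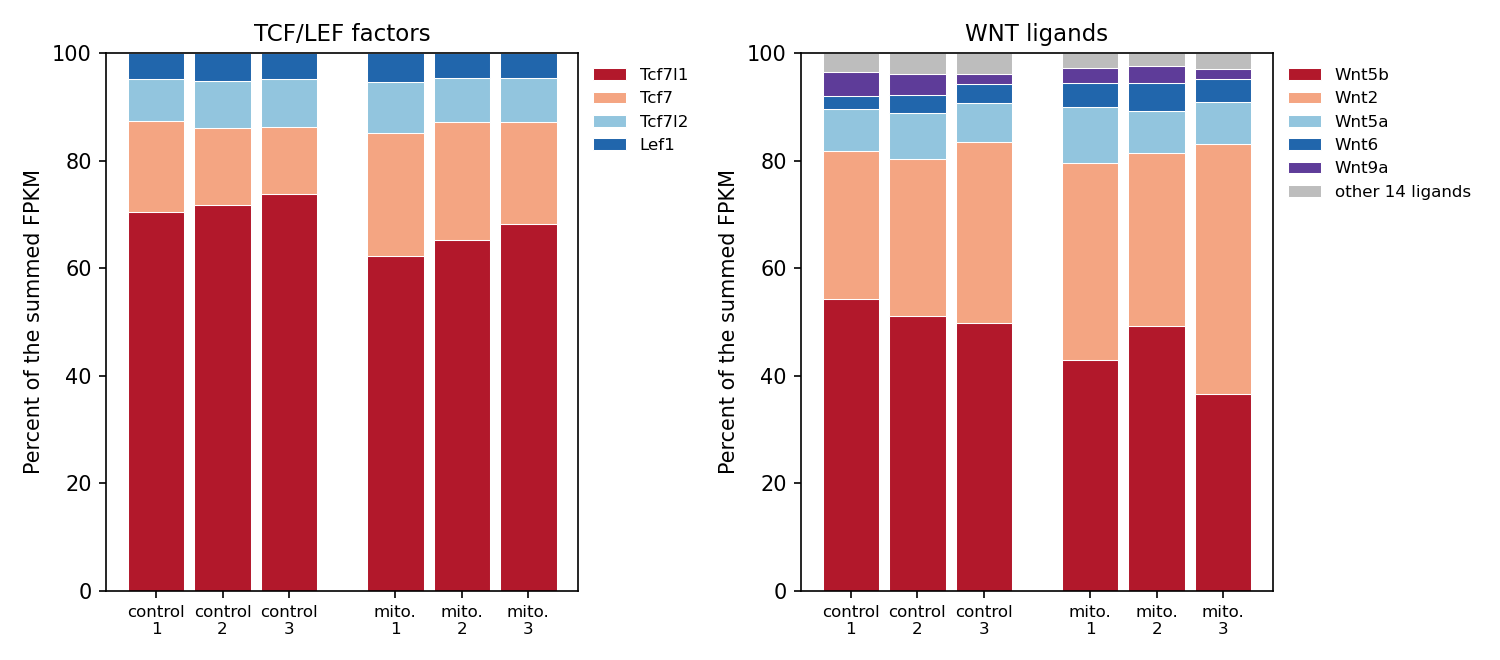
Share of each gene in the summed FPKM of the 4 TCF/LEF factors (left) and of the 19 WNT ligands (right), as stacked bars adding to 100% for each of the 6 libraries. The Tcf7l1 share is 70.4% or more in the controls and 68.2% or less with mitochondria, and the Wnt5b share is 49.8% or more in the controls and 49.1% or less with mitochondria.

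Among the 19 ligands, Wnt5b and Wnt2 together supplied most of the signal genes' RNA. Wnt5b acts mostly through branches without beta-catenin. It was at 15.02, 13.96 and 13.00 FPKM in controls and 10.74, 12.02 and 9.38 FPKM with mitochondria. All mitochondria libraries lay below all controls, but the change missed the threshold (mean 13.99 ± 1.01 and 10.7 ± 1.32 FPKM, SD, n = 3, log2 change −0.36, SE 0.10, limma adjusted p = 0.161). Wnt2, a canonical ligand of endothelial and mesenchymal tissue, was at 7.63, 7.94 and 8.75 FPKM in controls and 9.16, 7.90 and 11.9 FPKM with mitochondria. Its groups overlapped (log2 change 0.21, 95% interval −0.11 to 0.53, limma adjusted p = 0.550). Wnt5b held 49.8% to 54.2% of the summed ligand FPKM in controls and 36.6% to 49.1% with mitochondria, and Wnt2 held 27.5% to 33.5% and 32.3% to 46.4%.

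Wnt5a, the close relative of Wnt5b, was lower in level and its groups overlapped, at 2.17, 2.34 and 1.93 FPKM in controls and 2.61, 1.89 and 2.03 FPKM with mitochondria (log2 change 0.01, 95% interval −0.24 to 0.26, limma adjusted p = 0.985). Wnt6, a canonical ligand of epithelia, was at 0.660, 0.928 and 0.921 FPKM in controls and 1.12, 1.26 and 1.08 FPKM with mitochondria. It reached the 1 FPKM filter only through the mitochondria libraries, where it was higher, so its lack of overlap is no support on its own, and it did not pass the test (log2 change 0.23, limma adjusted p = 0.336).

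The other 15 ligands were not tested. Wnt9a came nearest, at 1.26, 1.07 and 0.451 FPKM in controls and 0.740, 0.8004 and 0.493 FPKM with mitochondria, with overlapping groups. Wnt11, a ligand of the polarity branch, was at 0.227, 0.265 and 0.217 FPKM in controls and 0.0462, 0.0551 and 0.0390 FPKM with mitochondria. The control mean of Wnt11 was 5.06 times the mitochondria mean, and the groups did not overlap. At its length and the estimated depth 1 fragment is worth 0.00889 to 0.0142 FPKM, so the mitochondria values rest on few fragments. In the fit with no filter on low values, Wnt11 had a log2 change of −0.24 (limma unadjusted p = 0.000913, adjusted p = 0.151). It was singled out after its values were seen. Wnt2b, Wnt10a and Wnt10b lay between 0.0649 and 0.257 FPKM. Wnt7a and Wnt7b, the barrier-inducing ligands, reached at most 0.0855 and 0.0207 FPKM, and Wnt1, Wnt3, Wnt4, Wnt8b and Wnt16 stayed at or under 0.0986 FPKM.

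WNT genes often lie in neighbouring pairs, and 4 such pairs are among the members. Wnt6 and Wnt10a are 6193 bases apart on chromosome 1 and averaged 0.995 and 0.164 FPKM over the 6 libraries. Wnt9a averaged 0.802 FPKM, while Wnt3a, 16175 bases away on chromosome 11, was listed at 0. Wnt10b and Wnt1, 11706 bases apart on chromosome 15, averaged 0.179 and 0.0351 FPKM. Wnt9b and Wnt3, 24328 bases apart on chromosome 11, were both at 0.0416 FPKM or less.

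Of the Frizzled receptors, the membrane receptors for WNT proteins, 8 of 10 were tested and 0 passed. The log2 changes of 7 of the 8 were negative, with a median of −0.12, where 52.0% of all genes tested were negative. Fzd1, which binds several WNTs, was the most abundant, at 32.0, 31.1 and 26.2 FPKM in controls and 25.8, 26.5 and 23.1 FPKM with mitochondria. Control replicate 3 fell inside the range of the mitochondria libraries, so the groups overlapped (log2 change −0.23, SE 0.09, limma adjusted p = 0.319). Fzd4, the receptor for norrin and Wnt7 in brain endothelium, was at 7.20, 8.26 and 7.16 FPKM in controls and 6.41, 6.57 and 5.63 FPKM with mitochondria. Its groups did not overlap and it missed the threshold (log2 change −0.25, SE 0.08, limma adjusted p = 0.251).

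Fzd6, a receptor of the polarity branch, was at 5.05, 5.23 and 4.76 FPKM in controls and 4.43, 4.596 and 4.08 FPKM with mitochondria (log2 change −0.16, limma adjusted p = 0.342). Fzd5, needed for yolk sac and placental vessels, was at 1.96, 1.82 and 1.83 FPKM in controls and 1.72, 1.66 and 1.504 FPKM with mitochondria. Fzd3, known from axon guidance, was at 1.70, 1.95 and 1.74 FPKM in controls and 1.56, 1.69 and 1.46 FPKM with mitochondria. In these 3 receptors too the groups did not overlap, and their limma adjusted p-values were 0.342 to 0.543.

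Fzd2, Fzd7 and Fzd8 overlapped between the groups. Fzd2 was at 13.04, 14.01 and 15.6 FPKM in controls and 12.1, 13.8 and 14.8 FPKM with mitochondria. Fzd7, a close relative of Fzd1 and Fzd2, was at 6.600, 8.38 and 6.21 FPKM in controls and 7.49, 7.16 and 6.72 FPKM with mitochondria. Fzd8 was at 4.57, 4.96 and 4.71 FPKM in controls and 4.37, 4.49 and 4.71 FPKM with mitochondria. None of the 3 came near the threshold (limma adjusted p-values 0.736 to 0.964). Fzd9 was not tested, and lay at 0.0412 to 0.136 FPKM in controls and 0 to 0.0399 FPKM with mitochondria, without overlap. At its length and the estimated depth 1 fragment is worth 0.0160 to 0.0257 FPKM, so these values rest on few fragments. In the fit with no filter on low values Fzd9 had a limma adjusted p of 0.638. Fzd10 was listed at 0. The summed Frizzled level was 68.3 to 75.8 FPKM in controls and 62.0 to 66.5 FPKM with mitochondria, and Fzd1 made up 37.2% to 44.3% of it. Fzd1 and Fzd2 share 53 words of 31 bases, and 1.61% and 1.90% of their words occur in another gene, so few reads could be assigned to the wrong one.

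The co-receptors Lrp5 and Lrp6, single-pass proteins that carry the signal to AXIN, had overlapping groups. Lrp6 was at 29.7, 36.0 and 39.5 FPKM in controls and 34.1, 33.5 and 34.3 FPKM with mitochondria, so all the mitochondria libraries lay inside the control range (95% interval of the log2 change −0.27 to 0.20, limma adjusted p = 0.924). Lrp5 was at 13.3, 13.6 and 14.01 FPKM and at 13.5, 13.9 and 12.8 FPKM (95% interval −0.16 to 0.10, limma adjusted p = 0.869).

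**Figure D3:**
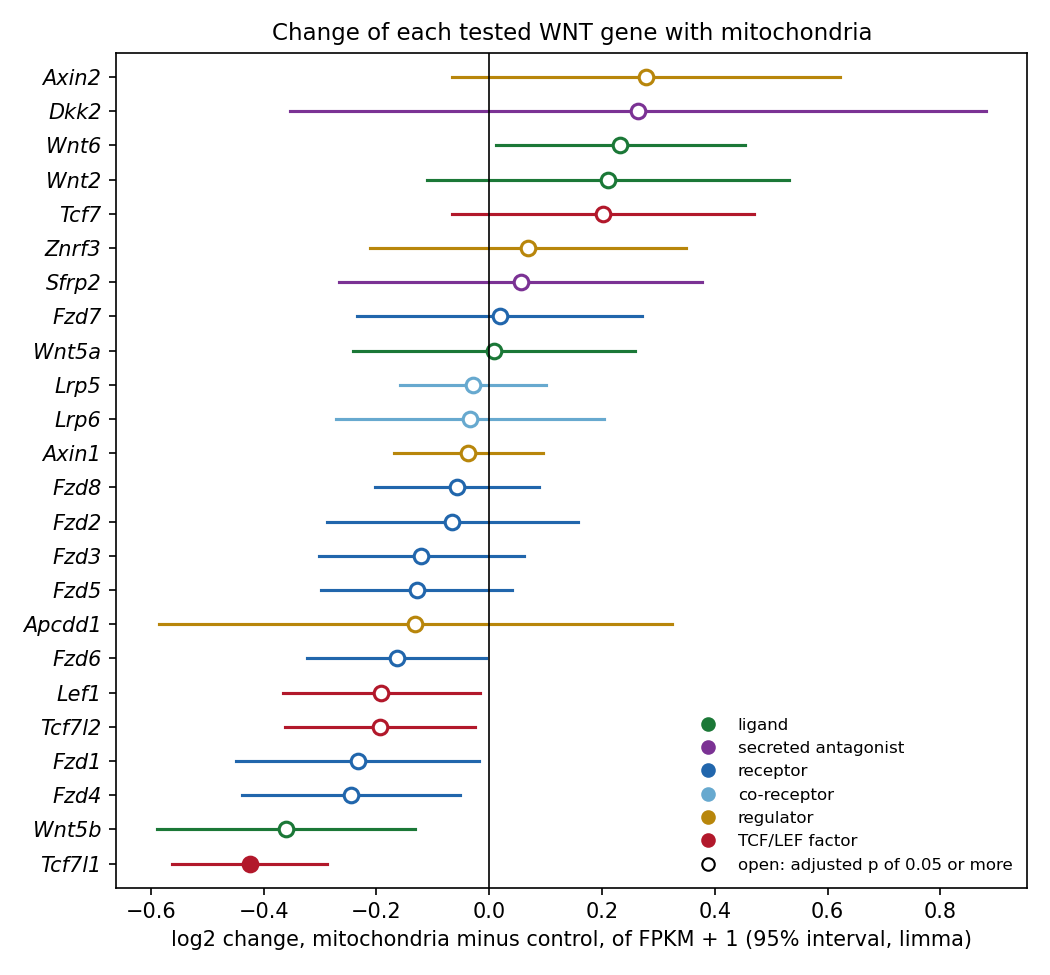
Log2 change of each tested member on the log2(FPKM + 1) scale, mitochondria minus control, with its 95% interval from limma, coloured by role and filled where the adjusted p was under 0.05. Tcf7l1 is the filled point at −0.42, and 7 of the 8 Frizzled receptors lie left of 0.

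The secreted antagonists were represented mainly by Sfrp2 and Dkk2. SFRP proteins bind WNTs outside the cell, and several, though not all, DKK proteins can block LRP5 and LRP6. Sfrp2, the most abundant member, was at 50.8, 57.2 and 45.4 FPKM in controls and 50.7, 45.8 and 63.8 FPKM with mitochondria (log2 change 0.06, 95% interval −0.27 to 0.38, limma adjusted p = 0.901). Dkk2 was at 15.4, 14.1 and 27.6 FPKM in controls and 19.7, 19.5 and 27.8 FPKM with mitochondria (log2 change 0.26, SE 0.26, limma adjusted p = 0.711). The spread of Dkk2 within each group was larger than the difference between the groups, and replicate 3 was highest in both. Sfrp4 reached at most 0.498 FPKM, and Sfrp1, Sfrp5, Dkk1 and Dkk3 stayed at or under 0.0994 FPKM, with Dkk4 listed at 0. Frzb, the related antagonist also known as sFRP3 and outside the rule on symbols, was far more abundant, at 261 to 289 FPKM over the 6 libraries (limma adjusted p = 0.934).

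Among the intracellular and membrane regulators none passed the threshold. Axin1, the scaffold of the beta-catenin destruction complex, was at 22.5, 21.7 and 21.8 FPKM in controls and 20.4, 21.3 and 22.7 FPKM with mitochondria, with overlap (95% interval of the log2 change −0.17 to 0.10, limma adjusted p = 0.824). Axin2, its inducible relative and the usual readout of canonical signalling, was at 1.12, 1.34 and 1.88 FPKM in controls and 1.82, 1.65 and 2.41 FPKM with mitochondria. The groups overlapped through control replicate 3 (log2 change 0.28, 95% interval −0.07 to 0.62, limma adjusted p = 0.454). Axin2, Dkk2 and Wnt2 were each highest in replicate 3 of both groups. Apcdd1, a membrane inhibitor induced by the pathway in brain endothelium, was at 11.04, 12.5 and 6.87 FPKM in controls and 8.65, 8.495 and 9.63 FPKM with mitochondria (limma adjusted p = 0.815). Control replicate 3 was the lowest of all 6.

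ZNRF3 and RNF43 are ubiquitin ligases that remove Frizzled receptors from the surface. Znrf3 was at 1.67, 2.43 and 2.25 FPKM in controls and 2.53, 2.27 and 1.97 FPKM with mitochondria (limma adjusted p = 0.852), and Rnf43 lay between 0.559 and 0.822 FPKM and was not tested. Nkd2, an inhibitor that binds Dishevelled, reached at most 0.0098 FPKM, and its relative Nkd1 was listed at 0.

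The rest of the pathway was read from 8 lists with 139 genes, 93 of them tested. In limma 1 rose and 2 fell at an adjusted p under 0.05, adjusted over all genes tested, of which 1.12% were called. At an unadjusted p under 0.05 there were 23 (24.7%, against 13.9% of all genes tested), 17 lower and 6 higher. Rspo1, a secreted protein that strengthens WNT signals by keeping ZNRF3 and RNF43 from Frizzled, rose. It was at 10.1, 7.90 and 8.90 FPKM in controls and 13.9, 12.7 and 13.9981 FPKM with mitochondria (log2 change 0.55, SE 0.09, limma adjusted p = 0.0487). The gene lies at chr4:124986430-125009099 on the plus strand. Rspo1 was still called without control replicate 1 (limma adjusted p = 0.0438) and was not without each of the other 5 libraries (limma adjusted p-values 0.0884 to 0.197). The call also ended with pseudocounts of 0.1 and 0.01, with no filter on low values and with empirical Bayes without trend and robust options (limma adjusted p-values 0.0511 to 0.157). The R-spondin receptors Lgr4 and Lgr6 had opposite signs and missed the threshold. Lgr4 was at 15.7, 18.2 and 16.1 FPKM in controls and 12.8, 12.5 and 10.03 FPKM with mitochondria (limma adjusted p = 0.102). Lgr6 was at 1.94, 2.24 and 2.33 FPKM in controls and 3.23, 3.40 and 3.02 FPKM with mitochondria (limma adjusted p = 0.0707). In both receptors the groups did not overlap. The same list of 19 R-spondins and co-receptors had 12 tested genes, 1 called higher and 0 lower, and 4 at an unadjusted p under 0.05 (33.3%). Sdc4, a heparan sulphate carrier, averaged 73.8 ± 3.90 and 59.1 ± 1.45 FPKM (SD, n = 3, limma adjusted p = 0.0621).

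The receptor parts of the brain endothelial pathway other than Fzd4 were present in both groups. Tspan12, the Fzd4 partner for norrin, averaged 6.76 ± 1.08 and 7.54 ± 0.175 FPKM, Reck, the Wnt7 co-receptor, 3.32 ± 0.0439 and 3.33 ± 0.354 FPKM, and Adgra2, which acts with Reck, 5.09 ± 1.60 and 4.12 ± 0.354 FPKM (SD, n = 3, limma adjusted p-values 0.596 to 0.999). Ndp, which encodes norrin, was listed at 0 in all 6 libraries.

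In the other lists, WNT secretion had 6 tested genes, extracellular modulators 4, cytoplasmic components 25, nuclear co-factors 16 and the polarity branch 10, with 0 called in each in limma and 1, 1, 5, 4 and 1 at an unadjusted p under 0.05. These are between 10.0% and 25.0% of the tested genes of a list, where 13.9% of all genes tested met that mark and 1.12% were called. Tmed5, a cargo carrier of the early secretory route, averaged 7.59 ± 0.428 and 6.61 ± 0.0762 FPKM, and its relative Tmed2 57.7 ± 17.6 and 66.9 ± 0.587 FPKM (SD, n = 3, limma adjusted p-values 0.261 and 0.659). Wls, which carries WNTs to the surface, averaged 27.3 ± 2.43 and 30.6 ± 2.505 FPKM, and Porcn, which attaches their lipid, 1.87 ± 0.582 and 1.52 ± 0.176 FPKM (limma adjusted p-values 0.470 and 0.670). Ctnnb1, which encodes beta-catenin, averaged 139.8 ± 27.9 and 150.2 ± 24.1 FPKM (limma adjusted p = 0.830). Igfbp4, a secreted inhibitor, averaged 270.4 ± 15.1 and 207 ± 14.9 FPKM without overlap (limma adjusted p = 0.0730), and Kremen1, a DKK receptor, and Trabd2b, a WNT-cleaving protease, had overlapping groups (limma adjusted p-values 0.515 and 0.628). The Groucho co-repressor gene Tle2 and Aes, a shorter member of the family also called Tle5, averaged 3.53 ± 0.219 and 2.83 ± 0.106 FPKM, and 59.6 ± 1.04 and 49.6 ± 5.89 FPKM (limma adjusted p-values 0.175 and 0.246). Their relative Tle3 averaged 5.25 ± 0.203 and 4.65 ± 0.0762 FPKM (limma adjusted p = 0.334), and in all 3 the groups did not overlap. Tle4, of the same family, was higher without overlap, at 5.32 ± 0.225 and 6.10 ± 0.397 FPKM (limma adjusted p = 0.338), and the groups of Tle1 overlapped (limma adjusted p = 0.745). Dact3, an inhibitor that binds Dishevelled, averaged 3.18 ± 0.0902 and 2.52 ± 0.149 FPKM (limma adjusted p = 0.153). Caprin2, which promotes LRP6 phosphorylation, averaged 3.39 ± 0.253 and 4.44 ± 0.481 FPKM, and the kinase gene Csnk1e 17.3 ± 0.374 and 15.7 ± 0.381 FPKM (limma adjusted p-values 0.177 and 0.309). In the polarity branch Prickle1 averaged 32.7 ± 3.17 and 27.2 ± 2.86 FPKM (limma adjusted p = 0.317). Vangl2, a core polarity membrane protein, averaged 11.5 ± 0.639 and 8.65 ± 2.98 FPKM, with mitochondria replicate 2 alone at 5.23, and the formin gene Daam1 7.01 ± 0.292 and 7.39 ± 0.115 FPKM (limma adjusted p-values 0.464 and 0.661).

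Of 13 tested general target genes 5 had an unadjusted p under 0.05 in limma (38.5%, against 13.9% of all genes tested), 3 lower and 2 higher. Only 1 was called, where 1.12% of all genes tested were, and it fell: Fosl1, an AP-1 factor. It was at 7.88, 8.02 and 7.84 FPKM in controls and 6.10, 5.14 and 5.21 FPKM with mitochondria (log2 change −0.46, limma adjusted p = 0.0437). Its call was lost whichever library was left out (0.077 to 0.173) and with no filter (limma adjusted p = 0.135). Twist1, a mesenchymal factor, averaged 71.1 ± 1.32 and 61.1 ± 3.30 FPKM, and Ccn1, a matricellular protein gene, 12.3 ± 2.42 and 8.07 ± 0.775 FPKM, both without overlap (limma adjusted p-values 0.144 and 0.145). Ccnd1, which encodes cyclin D1, averaged 33.9 ± 0.490 and 38.2 ± 0.524 FPKM, with no overlap between the groups and a limma adjusted p of 0.151, and Myc 5.29 ± 0.627 and 5.10 ± 0.518 FPKM (limma adjusted p = 0.886). Ccn5 was, like Ccnd1, higher without overlap, at 3.34 ± 0.257 and 4.23 ± 0.657 FPKM (limma adjusted p = 0.320). Of 14 barrier targets of beta-catenin 7 never reached 1 FPKM, and the other 7 were tested. Of these 2, both lower, had an unadjusted p under 0.05 in limma (28.6%, against 13.9% of all genes tested), and 1 was called. The lipid transporter gene Mfsd2a fell, from 9.65, 10.3 and 10.3 FPKM to 6.83, 6.52 and 6.97 FPKM (log2 change −0.51, limma adjusted p = 0.0182). Its call held without control replicate 1 or 3 and was lost without control replicate 2 or any 1 mitochondria library (limma adjusted p-values 0.0597 to 0.108), and with no filter (0.0733). Mfsd2a lies at chr4:122946850-122961188 on the minus strand, and Fosl1 at chr19:5447547-5455946 on the plus strand. Slc2a1, which encodes GLUT1, had overlapping groups (limma adjusted p = 0.669). Sox7, an endothelial SOX factor, averaged 3.08 ± 0.859 and 1.67 ± 0.375 FPKM without overlap (limma adjusted p = 0.204).

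**Figure D4:**
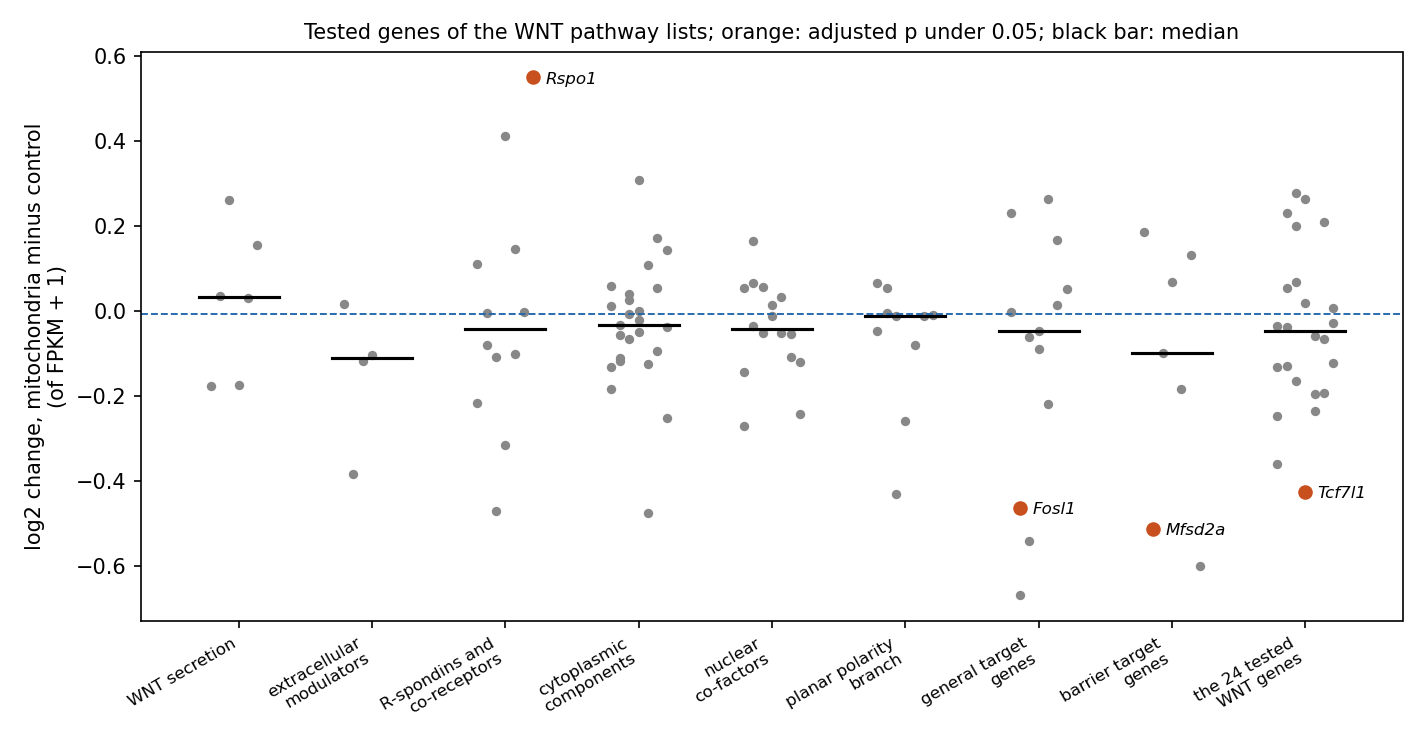
Log2 change on the log2(FPKM + 1) scale, mitochondria minus control, of each tested gene in the 8 pathway lists and of the 24 tested members, orange where the adjusted p was under 0.05, with black bars at the medians and a dashed line at the median of all genes tested, −0.01. Rspo1 is the orange point above 0, and Fosl1, Mfsd2a and Tcf7l1 are those below it.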

How the data were processed

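Gene expression was measured in 6 libraries. The authors deposited 1 column per library, read here as FPKM from the values, since the headers name no unit. The tools named in the submitters' processing notes are StringTie 1.3.1c, STAR 2.5.3a and FastQC 0.11.5, with the build GRCm38. Their roles, the annotation and the use of strand are not given in the sources used here. GENCODE M21 named 55154 of 55335 identifiers. Depth was the inverse of the value of 1 fragment in single-transcript genes. Only between 17.7% and 19.9% of low values lay within 0.02 of whole fragments, so the depth is a rough estimate. No count model was used, since the values were taken as FPKM.

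limma 3.58.1 (R 4.3.3) was fitted to log2(FPKM + 1), taking group alone as the model term with the trend and robust options of empirical Bayes, where 3 or more libraries reached 1 FPKM. The scale understates the fold of low genes. On simulated data with 12639 genes, 200 were changed, all at a mean of 5 FPKM or more. The fit recovered 63.6% of 1.5-fold and 86.3% of 2-fold changes, and 4.2% of calls were false. Simulated libraries were drawn independently, which the labels do not state for the real ones. Smaller changes, such as the 1.36-fold one of Tcf7l1, and changes in genes under 5 FPKM were not simulated. The members, lists and rule for named genes (every member, and the called or up to 3 lowest-p genes of each list) were chosen with earlier results of these data known, and other genes named were picked after their values were seen. In the lists, 1 repeated symbol was dropped.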

Additional observations from a re-analysis of the deposited data

How the results depend on the processing

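The alternatives were the replicate block, leaving out each library, TPM, quantile or median-of-ratios scaling, a filter at a mean of 5 FPKM or none, pseudocounts of 0.01 and 0.1, removal of mitochondrial DNA genes, and empirical Bayes without trend and robust options. Of 373 values of members, 352 kept direction and side of the threshold, 8 of Tcf7l1 lost the call and 13, in 8 uncalled members, changed sign. With no filter, where more genes are tested, 13 genes, 0 members and 0 other pathway genes were called. With the replicate block the numbers were 56, 0 and 0, and Tcf7l1 had a limma adjusted p of 0.0581. Same-numbered libraries deviated together with correlations of 0.10, 0.05 and 0.30, and differently numbered ones with −0.20 to 0.12. Not every library correlated best with its own number: control replicate 2 did so with mitochondria replicate 1 (0.12). The numbers were therefore not taken to pair the libraries. The highest value, 0.30, was that of replicate 3, and its cause was not tested. Without 1 library, 15 (mitochondria replicate 1) to 84 (control replicates 1 and 3) genes, 0 to 0 members and 0 to 2 other pathway genes were called. The values without control replicate 2 and mitochondria replicates 2 and 3 were 21, 16 and 28 genes. A group left with 2 libraries shares the spread of both groups.

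Quantile normalization took Wnt5a to −0.0054 on the log2 scale. Log2 changes without 1 library ran from −0.36 to 0.027 for Apcdd1, −0.13 to 0.0085 for Fzd2, −0.057 to 0.13 for Fzd7, −0.053 to 0.0010 for Lrp5, −0.15 to 0.055 for Lrp6, −0.077 to 0.16 for Sfrp2, −0.086 to 0.073 for Wnt5a, −0.040 to 0.14 for Znrf3, −0.015 to 0.43 for Tmed2, −0.036 to 0.25 for Ctnnb1 and −0.098 to 0.035 for Myc. Sdc4 was called under quantile normalization, TPM and removal of mitochondrial DNA genes. Rspo1 lost its call with both other pseudocounts, no filter, empirical Bayes without options and the replicate block (limma adjusted p-values 0.0511 to 0.157). Fosl1 and Mfsd2a lost theirs with no filter (0.135 and 0.0733) and the replicate block (0.0712 and 0.0535). The cause of these differences was not tested.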
